A study of Mus musculus with 32 samples.

Results

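The 8 genes described here, Smad3, Smad6, Smad7, Skil, Tgif1, Id1, Id2 and Id3, are genes of the TGF-beta and BMP pathways. Smad3 encodes a transducer of the signal, and the others take part in feedback on SMAD signalling or are direct SMAD targets. All 8 were taken by symbol from the deposited gene table and are described whichever way they moved. The set was chosen with earlier results of these data known, so it is not independent of them. All 8 passed the filter on low counts, among 13258 genes tested and 49585 entries in all. The cells were FE1, a mouse line that the labels call lung epithelial. Hydrazine, a reactive industrial chemical and rocket fuel that is toxic and damages DNA, was given at 0 mM (called the vehicle here), 1, 4, 6 or 10 mM. Cells were collected straight after 4 h of exposure or after 4 h followed by 20 h of washout. Each of the 10 groups held 3 libraries, named a to c, except 4 mM at 4 h, which held 5, named a to e.

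TGF-beta, activin and BMP ligands bind paired kinase receptors on the cell surface, and the receptors phosphorylate SMAD proteins. SMAD2 and SMAD3 carry the TGF-beta and activin signal, SMAD1, SMAD5 and SMAD9 carry the BMP signal, and both sets act in the nucleus together with SMAD4. The pathway restrains itself through genes that its own SMADs induce. SMAD6 and SMAD7 block the receptors and recruit ubiquitin ligases, SKIL (also called SnoN) and TGIF1 are corepressors that bind SMADs on DNA, and the ID proteins, best known as BMP targets, capture E-proteins such as TCF3, TCF4 and TCF12 so that these cannot bind DNA. In the lung, TGF-beta is known for its part in epithelial repair and in fibrosis.

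Gene spans are given from GENCODE M21 on GRCm38, since the build of the counts is not given in the sources used here. Smad3 spans chr9:63646767-63757994 on the minus strand and Smad6 spans chr9:63953076-64022059 on the same strand, with 195081 bases between them. Skil spans chr3:31095058-31122577, Id1 chr2:152736251-152737410 and Id3 chr4:136143497-136145755, all on the plus strand. Tgif1 spans chr17:70844205-70853546 and Id2 chr12:25093799-25097140, both on the minus strand. Id1 is the shortest, with 1160 bases of exon, and Skil holds the most, with 9694 bases over all its annotated exons.

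RefSeq promoter windows (GRCm38.p6) were at hand for 5 of the 8 genes. Of their windows, 3 kept all 250 bases before the start free of annotated exons. Smad3 and Tgif1 both fell at 1 and 4 mM, where Smad6 was not called, as described further on. A link between sequence and these levels was not tested. The 3 stretches are printed to set these genes side by side. Each reads 5′ to 3′ on the minus strand, and capitals mark a SMAD core motif, CAGAC, on either strand.
Smad3, chr9:63757995-63758244: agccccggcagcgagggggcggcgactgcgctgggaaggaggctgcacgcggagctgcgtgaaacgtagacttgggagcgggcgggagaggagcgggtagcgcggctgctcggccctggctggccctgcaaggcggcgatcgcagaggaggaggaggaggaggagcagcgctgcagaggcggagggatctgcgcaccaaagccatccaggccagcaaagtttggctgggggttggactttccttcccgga
Smad6, chr9:64022060-64022309: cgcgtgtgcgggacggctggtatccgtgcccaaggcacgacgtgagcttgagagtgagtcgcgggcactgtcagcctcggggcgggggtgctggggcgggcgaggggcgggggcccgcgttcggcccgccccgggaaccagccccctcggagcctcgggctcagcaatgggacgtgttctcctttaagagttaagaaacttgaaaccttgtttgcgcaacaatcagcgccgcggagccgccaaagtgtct
Tgif1, second start, chr17:70851735-70851984: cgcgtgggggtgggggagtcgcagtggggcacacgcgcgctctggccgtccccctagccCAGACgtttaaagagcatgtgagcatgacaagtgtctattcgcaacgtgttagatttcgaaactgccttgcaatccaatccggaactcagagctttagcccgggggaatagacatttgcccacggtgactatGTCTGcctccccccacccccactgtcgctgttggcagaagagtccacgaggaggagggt
The Tgif1 stretch lies inside the gene's span, before the second of its 5 annotated starts, and holds 2 matches of the core motif. The Smad3 and Smad6 stretches hold none. Among the windows that overlap exons, the other Tgif1 windows hold 1, 0, 1 and 0 matches, the Id3 window 2 and the Id2 window 0. The core motif occurs in 42.19% of the 32851 RefSeq windows of 250 bases, counting both strands. A GC-rich SMAD motif, GGCGCC, is in none of the 3 stretches and in 9.586% of those windows. The GC content was 69.2% before Smad3, 66.8% before Smad6 and 58.8% before Tgif1.

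Library totals ran from 10560942 to 17086721 counts, and each of the 8 genes had counts in every library. The lowest was 60, for Id2, and the highest 2498, for Skil. Levels are given as CPM, counts scaled to a common library size with edgeR's trimmed mean of M-values, with SD over libraries. The cell type label was checked with marker genes. Of 16 lung epithelial markers, 3 passed the filter. Hopx was at 12.2 CPM in the 4 h vehicle and 14.1 CPM in the washout vehicle. Ager was at 1.06 and 1.03 CPM there and Krt7 at 0.856 and 0.485 CPM. Cldn4, Sftpc, Sftpa1 and Nkx2-1 were listed at 0 in every library. Marker values were scaled by library total alone. The list summed to between 7.97 and 22.03 CPM. All 11 mesenchymal markers passed, at 16296 to 20279 CPM in sum. The lung epithelial label thus goes against most of its listed markers, though Hopx was expressed. Markers of endothelial cells summed to at most 0.690 CPM and those of leukocytes to at most 4.06 CPM. Library c of 6 mM after washout stood apart, with a root mean square deviation from its group of 0.391 on the log2 scale against 0.208 to 0.288 in the other 31 libraries, and the 6 mM washout results of Skil, Smad3, Id1 and Id3 are given with and without it.

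All 8 genes rose after 4 h of 10 mM hydrazine. The smallest fold was 1.54 (Smad3) and the largest 5.30 (Id2). Calls here come from the quasi-likelihood test of edgeR, with p-values adjusted by Benjamini-Hochberg across the 13258 genes and a threshold of 0.05. At this dose it called 50.1% of all genes, with 26.0% of all genes called higher. The median log2 fold change of the 8 genes was 1.13, against 0.01 over all genes tested. By size of the fold change, Smad3 ranked above 76.3% of all genes and Id2 above 98.8%.

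These were bulk samples, in which fewer cells of a type and less RNA per cell cannot be told apart. At 10 mM and 4 h the lung epithelial markers summed to 7.97 to 9.29 CPM against 13.2 to 15.9 CPM in the vehicle. Most of that sum was Hopx, at 6.17 CPM against 12.2 in the vehicle. Ager was at 0.314 against 1.06 CPM, and Krt7 at 0.928 against 0.856 CPM. The leukocyte list, in which Cd68 alone passed the filter, summed to 2.93 to 4.06 against 1.89 to 2.56 CPM. The part of these markers in the result was not tested. The labels do not say whether replicates came from separate cultures, so p-values measure the spread between these libraries, which may be technical.

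**Figure D1:**
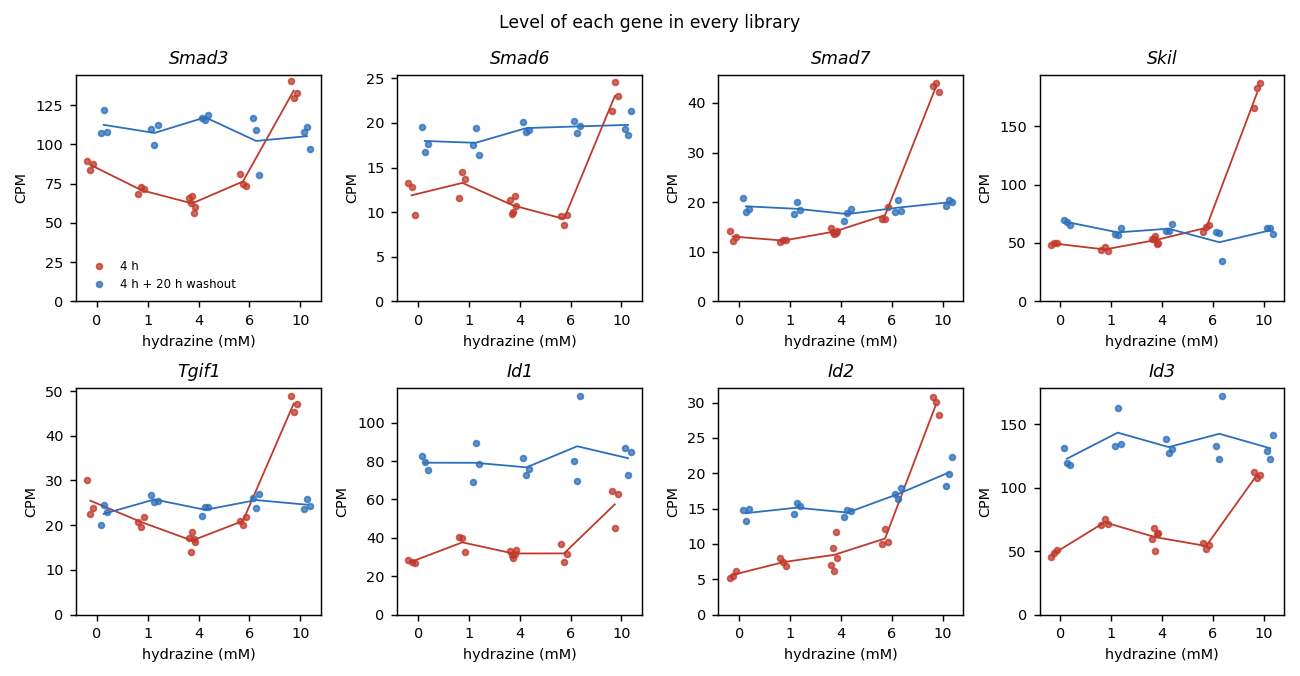
Level of each gene (CPM, vertical axis from 0) against hydrazine dose (mM, spaced evenly) in the libraries taken at 4 h (red) and after 4 h plus 20 h of washout (blue). Points are single libraries and lines join group means; at 4 h all 8 genes are highest at 10 mM, while after washout library c of 6 mM is low for Smad3 and Skil and high for Id1 and Id3.

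Smad3, the transducer of TGF-beta and activin signals in the set, fell at 1 and 4 mM and rose at 10 mM. At 4 h the vehicle libraries held 89.2, 83.8 and 87.6 CPM and the 1 mM libraries 68.1, 73.0 and 71.4 CPM. The 5 libraries of 4 mM held 66.1, 62.3, 66.9, 56.2 and 60.2 CPM, the lowest of any group. At 6 mM the values were 81.0, 74.5 and 73.3 CPM, and at 10 mM they were 140.2, 129.6 and 133 CPM. Every library at 1, 4 and 6 mM lay below every vehicle library, and every library at 10 mM lay above. The log2 fold change was -0.29 ± 0.09 (SE) at 1 mM (adjusted p = 0.0338), -0.48 ± 0.08 with 4 mM (1.50e-05) and 0.63 ± 0.09 at 10 mM (7.73e-07). At 6 mM it was -0.19 ± 0.09 and missed the threshold (adjusted p = 0.0990). The call at 1 mM was lost without any 1 of 5 libraries (a, b or c of 1 mM, a or c of the vehicle; adjusted p 0.0543 to 0.122, log2 fold change -0.33 to -0.27). The fall at 6 mM passed once library c of the 6 mM washout group, which shares the estimate of spread, was left out (adjusted p = 0.0106), and with fewer groups in the fit (0.00671 and 0.0190).

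Smad7, which spans chr18:75367529-75395935 on the plus strand, and Smad6 are the inhibitory SMADs. Smad7, whose protein blocks both TGF-beta and BMP receptors, rose further than Smad6, whose protein acts mainly on BMP signalling. Smad7 stood at 14.1, 12.2 and 12.9 CPM in the vehicle, 11.9, 12.4 and 12.4 CPM at 1 mM and 14.7, 14.0, 13.5, 13.8 and 14.2 CPM at 4 mM. It reached 16.7, 16.5 and 18.9 CPM at 6 mM and 43.4, 44.1 and 42.2 CPM at 10 mM. The vehicle overlapped both 1 and 4 mM, and every library of 6 and 10 mM lay above all of these. On the log2 scale the difference from the vehicle was -0.09 ± 0.08 at 1 mM (adjusted p = 0.628), 0.11 ± 0.07 with 4 mM (0.295), 0.41 ± 0.08 at 6 mM (1.18e-04) and 1.73 ± 0.08 at 10 mM (3.06e-17).

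Smad6 was at 13.2, 12.8 and 9.66 CPM in the vehicle, 11.6, 14.5 and 13.8 CPM at 1 mM and 11.4, 9.79, 9.98, 11.9 and 10.7 CPM at 4 mM. It stood at 9.53, 8.52 and 9.66 CPM at 6 mM and at 21.4, 24.6 and 23.0 CPM at 10 mM. Library c of the vehicle was as low as the 6 mM group, so those groups overlapped, whereas 10 mM lay clear of all others at 4 h. Its log2 fold change was 0.16 ± 0.11 at 1 mM (adjusted p = 0.405) and -0.14 ± 0.10 at 4 mM (0.253). It fell by 0.37 on the log2 scale at 6 mM (SE 0.11, adjusted p = 0.00969) and rose by 0.95 ± 0.10 at 10 mM (6.55e-09). The call at 6 mM was lost without library a or b of the vehicle (log2 fold change -0.29 and -0.31, adjusted p = 0.0697 and 0.0540), and 4 mM passed as lower without library c of the vehicle (-0.28, adjusted p = 0.0288).

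Of the corepressors, Tgif1 fell at 1, 4 and 6 mM, Skil rose at 6 mM, and both rose at 10 mM. A difference between these genes was not tested. Skil stood at 48.1, 50.4 and 50.3 CPM in the vehicle, 43.6, 46.3 and 43.4 CPM at 1 mM and 53.2, 53.0, 56.2, 49.5 and 50.1 CPM at 4 mM. It stood at 59.7, 63.9 and 65.4 CPM at 6 mM and 166, 183 and 187 CPM at 10 mM. The 6 and 10 mM libraries lay above every vehicle library, and those of 1 mM below. Its log2 fold change against the vehicle was -0.16 ± 0.11 at 1 mM (adjusted p = 0.435), 0.08 ± 0.10 with 4 mM (0.572), 0.35 ± 0.11 at 6 mM (0.0126) and 1.85 ± 0.11 at 10 mM (2.00e-14), so it passed at 6 and 10 mM. With only the 4 h libraries in the fit, Skil passed as lower at 1 mM (adjusted p = 0.049986). Without library a of the vehicle or library c of 6 mM the call at 6 mM was lost (0.32 and 0.30, adjusted p = 0.0525 and 0.0559).

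Tgif1 stood at 30.1, 22.5 and 23.8 CPM in the vehicle, 20.7, 19.6 and 21.9 CPM at 1 mM and 17.0, 14.1, 18.5, 16.8 and 16.3 CPM at 4 mM. At 6 mM it was 20.8, 20.1 and 21.8 CPM and at 10 mM 49.0, 45.4 and 47.2 CPM. Libraries at 1, 4 and 6 mM all lay below the vehicle, whose library a was well above b and c, and those at 10 mM lay above it. Tgif1 changed by a log2 fold of -0.30 ± 0.09 at 1 mM (adjusted p = 0.0397), -0.63 ± 0.08 with 4 mM (5.96e-07), -0.28 ± 0.09 at 6 mM (0.0171) and 0.89 ± 0.09 at 10 mM (1.55e-09), passing at all 4 doses. Without library a of the vehicle the log2 fold change was -0.17 at 1 mM (adjusted p = 0.355) and -0.15 at 6 mM (0.220), and neither passed. The 1 mM call was also lost without library a or b of 1 mM (adjusted p = 0.101 and 0.139), without the filter on low counts (0.0605) or with only the groups compared in the fit (0.0540), and the 6 mM call without library b of 6 mM (0.0538), while the calls at 4 and 10 mM held in every alternative run.

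Among the ID genes, Id3 passed as higher at 1 and 4 mM, Id2 at 4 and 6 mM, and all 3 at 10 mM. Differences between these genes were not tested. For Id3 the vehicle held 45.4, 48.3 and 50.5 CPM, 1 mM 70.9, 75.5 and 71.8 CPM and 4 mM 59.4, 68.5, 49.9, 63.3 and 64.0 CPM. At 6 mM it held 56.1, 51.5 and 54.6 CPM and at 10 mM 112, 108 and 110.2 CPM. Library c of 4 mM fell within the range of the vehicle, and every library of 1, 6 and 10 mM lay above it. For Id3 the log2 fold change was 0.60 ± 0.10 at 1 mM (adjusted p = 3.52e-04), 0.35 ± 0.09 with 4 mM (0.00411), 0.17 ± 0.11 at 6 mM (0.214, past the threshold in no alternative run) and 1.20 ± 0.10 at 10 mM (9.04e-11).

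Id2 rose from the lowest base. The vehicle held 5.15, 5.45 and 6.22 CPM, 1 mM 7.97, 7.49 and 6.82 CPM and 4 mM 6.95, 9.44, 6.16, 11.7 and 8.04 CPM. The level reached 9.92, 12.1 and 10.2 CPM at 6 mM and 30.8, 30.1 and 28.2 CPM at 10 mM. Libraries of 4 mM were spread widely, the lowest overlapping the vehicle and the highest within the range of 6 mM. For Id2 the log2 fold change was 0.40 ± 0.16 at 1 mM (adjusted p = 0.120), 0.60 ± 0.14 with 4 mM (0.00116), 0.94 ± 0.16 at 6 mM (1.43e-05) and 2.40 ± 0.15 at 10 mM (2.77e-14). The calls at 4, 6 and 10 mM held in every alternative run.

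Id1 stood at 28.4, 27.3 and 26.9 CPM in the vehicle, 40.3, 39.9 and 32.6 CPM at 1 mM and 33.3, 31.1, 29.5, 31.8 and 33.5 CPM at 4 mM. It stood at 36.6, 27.5 and 31.5 CPM at 6 mM and 64.5, 45.3 and 62.6 CPM at 10 mM. Every library of 1, 4 and 10 mM lay above the vehicle, and library b of 10 mM was well below a and c. For Id1 the log2 fold change was 0.44 ± 0.15 at 1 mM (adjusted p = 0.0603), 0.21 ± 0.14 with 4 mM (0.239), 0.21 ± 0.15 at 6 mM (0.291) and 1.06 ± 0.15 at 10 mM (1.16e-06). At 1 mM it passed without any 1 of 4 libraries (c of 1 mM, b of 10 mM at 4 h, b or c of 6 mM after washout; log2 fold change 0.43 to 0.52, adjusted p 0.0200 to 0.0482), with DESeq2 (0.0327), and with only the same time point (0.0297) or only the groups compared in the fit (0.00258). With only the groups compared Id1 passed at 4 mM too (0.0151).

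Counted by dose at 4 h, 1 of the 8 genes rose and 2 fell at 1 mM, where 9.84% of all genes were called. At 4 mM 2 rose and 2 fell, where 38.6% of all genes were called. At 6 mM 3 rose and 2 fell, where 39.8% were called. The median log2 fold change of the 8 was 0.03, 0.09 and 0.19 at 1, 4 and 6 mM, and that of all genes 0.01, 0.03 and 0.02. These comparisons share the vehicle libraries. At 10 mM no alternative run changed a call for any of the 8.

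**Figure D2:**
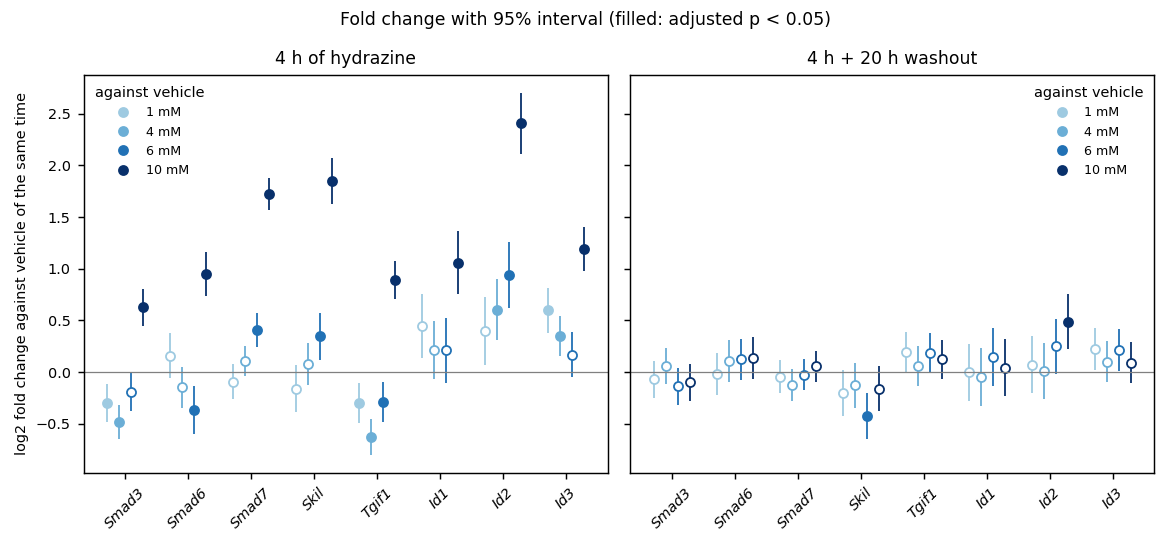
Log2 fold change of each gene against the vehicle of the same time (vertical axis) at 4 h (left) and after washout (right), with 95% intervals; darker points are higher doses and filled points passed adjusted p below 0.05. At 4 h the 10 mM points run from 0.63 for Smad3 to 2.40 for Id2, and after washout Skil at 6 mM and Id2 at 10 mM are the filled points.

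Between neighbouring doses, the step from 6 to 10 mM raised all 8 genes, in a comparison that called 37.5% of all genes. The log2 difference ran from 0.81 ± 0.09 for Smad3 (adjusted p = 2.57e-08) and 0.85 ± 0.15 for Id1 (4.18e-05) to 1.46 ± 0.13 for Id2 (9.18e-10) and 1.504 ± 0.11 for Skil (8.69e-12). No alternative run changed a call for any of the 8. Smad6, which had fallen at 6 mM, rose by 1.32 ± 0.11 over this step, beside Smad7 (1.31 ± 0.07).

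From 4 to 6 mM, 3 of the 8 rose and none fell, where 8.06% of all genes were called. They were Tgif1 (0.34 ± 0.09, adjusted p = 0.00939), Smad7 (0.30 ± 0.07, 0.00437) and Smad3 (0.29 ± 0.08, 0.0183). Smad3 lost its call on leaving out library d of 4 mM (0.26, adjusted p = 0.0542) or a of 6 mM (0.25, 0.137), or with libraries a to c of 4 mM alone (0.23, 0.149), and Smad7 and Tgif1 lost theirs without library c of 6 mM (0.0864 and 0.0731). Id2 passed without library d of 4 mM (0.48, 0.00553), and Skil, at 0.27 ± 0.10 (adjusted p = 0.0871), passed on leaving out library c of the 6 mM washout group (4.75e-04).

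From 1 to 4 mM, Smad7 rose (0.20 ± 0.07, adjusted p = 0.0410), while Smad6 (-0.30 ± 0.09, 0.0154), Tgif1 (-0.33 ± 0.08, 0.00436) and Id3 (-0.25 ± 0.09, 0.0407) fell, where 24.7% of all genes were called. Leaving out 1 library ended the call of Id3 for 13 of the 32 libraries, of Smad7 for 6 (a, b or c of 1 mM, a, b or e of 4 mM), of Smad6 for 2 (b or c of 1 mM) and of Tgif1 for 1 (c of 1 mM), with adjusted p of at most 0.154, 0.139, 0.123 and 0.0516. Id3 and Smad7 also lost theirs without the filter on low counts, and Smad7 with DESeq2 (0.104). With library c of the 6 mM washout group left out, Skil (0.24, adjusted p = 7.32e-04) and Smad3 (-0.18, 0.0134) passed as well.

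At the end of the washout, most of the 8 genes in treated cells did not pass the test against the vehicle of that time. None was called at 1 mM or 4 mM, where edgeR called 0.981% and 3.48% of all genes. At 6 mM Skil fell, where 11.1% of all genes were called, and at 10 mM Id2 rose, where 5.32% were called. For the 8 genes at 10 mM the 95% intervals of the log2 fold change had their upper ends between 0.06 (Skil) and 0.75 (Id2), and their lower ends between -0.38 (Skil) and 0.22 (Id2). For Smad7 the interval was -0.09 to 0.21, against a rise of 1.73 at 4 h.

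Id2 held 14.8, 13.3 and 15.0 CPM in the washout vehicle, 14.2, 15.8 and 15.4 CPM after 1 mM and 13.8, 14.9 and 14.7 CPM after 4 mM. It held 17.0, 16.3 and 17.9 CPM after 6 mM and 18.2, 19.9 and 22.2 CPM after 10 mM. The libraries of 6 and 10 mM all lay above the vehicle. The log2 fold change was 0.25 ± 0.13 after 6 mM (adjusted p = 0.213) and 0.49 ± 0.13 after 10 mM (0.0215). The call after 10 mM was lost without library b or c of 10 mM or library a or b of the vehicle (log2 fold change 0.41 to 0.51, adjusted p 0.0534 to 0.115).

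Skil held 69.9, 68.2 and 65.7 CPM in the washout vehicle, 57.6, 57.1 and 62.5 CPM after 1 mM and 59.8, 60.2 and 66.7 CPM after 4 mM. It held 59.0, 58.2 and 34.6 CPM after 6 mM and 62.4, 62.4 and 57.6 CPM after 10 mM. Library c of 6 mM, the one that stands apart over all genes, was far below a and b, which themselves lay below every vehicle library, as did all libraries of 1 and 10 mM. The log2 fold change after 6 mM was -0.42 ± 0.11 (adjusted p = 0.0112). With library c left out it was -0.22 (adjusted p = 0.0399), and with only the washout libraries or only the 2 groups in the fit the call was lost (adjusted p = 0.122 and 0.471, within a range of 0.00185 to 0.471 over all alternatives). Leaving out library c of 6 mM, Skil also passed as lower after 1 mM (-0.21, adjusted p = 0.0375).

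Smad3 in that library was likewise low, at 80.6 CPM beside 117 and 109 CPM, while Id1 (114 CPM) and Id3 (172 CPM) were the highest of all 32 libraries. The log2 fold change after 6 mM went from -0.14 to 0.01 for Smad3, from 0.15 to -0.08 for Id1 and from 0.21 to 0.05 for Id3 when library c was left out, and none of these passed. Smad3 ranged from 102 ± 19.1 CPM (6 mM) to 117 CPM (4 mM), around a vehicle of 112 ± 8.28 CPM. Smad6 ranged from 17.8 ± 1.51 CPM (1 mM) to 19.8 ± 1.36 CPM (10 mM) and Smad7 from 17.6 ± 1.20 CPM (4 mM) to 20.0 ± 0.604 CPM (10 mM). Tgif1 ranged from 22.5 ± 2.22 CPM (vehicle) to 25.7 ± 0.949 CPM (1 mM), Id1 from 76.7 ± 4.68 CPM (4 mM) to 87.7 ± 23.2 CPM (6 mM) and Id3 from 123 ± 7.15 CPM (vehicle) to 143 ± 17.0 CPM (1 mM; n = 3 each). For these 6 genes the libraries of every treated group overlapped the vehicle, apart from Tgif1 and Id3 after 1 mM, whose libraries all lay above it. Neither was called there (adjusted p = 0.362 and 0.314), and how often libraries separate over all genes was not counted. Id3 after 6 mM passed as higher without library b of that group (0.31, adjusted p = 0.0306).

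The effect of 10 mM differed between the times for all 8 genes. The fold change after washout minus that at 4 h, tested as an interaction, was lower for each of them, in a contrast that called 36.4% of all genes. It ran from -0.72 ± 0.12 for Smad3 (adjusted p = 3.20e-05) and -0.76 ± 0.13 for Tgif1 (2.48e-05) to -1.92 ± 0.20 for Id2 (6.86e-09) and -2.01 ± 0.15 for Skil (2.17e-11). No alternative run ended any of these calls. At 6 mM the contrast called 24.4% of all genes and 5 of the 8. Smad7, Skil and Id2 were lower after washout relative to 4 h (-0.43 ± 0.11, -0.77 ± 0.15 and -0.69 ± 0.20, adjusted p = 0.00386, 4.10e-04 and 0.0132), and Smad6 and Tgif1, which had fallen at 4 h, were higher (0.49 ± 0.15 and 0.47 ± 0.13, 0.0156 and 0.00882). With library c of the 6 mM washout group left out, Skil was at -0.55 (adjusted p = 1.23e-05). Without library b of 6 mM at 4 h Id2 lost its call (-0.59, adjusted p = 0.0522), and without library a of the 4 h vehicle Smad6 did (0.41, 0.0602). With only the groups compared in the fit Smad6, Smad7 and Tgif1 lost theirs (adjusted p = 0.0696, 0.0631 and 0.0670).

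At 4 mM the contrast called 17.3% of all genes and 3 of the 8. Smad3 (0.54 ± 0.12, adjusted p = 0.00150) and Tgif1 (0.69 ± 0.13, 2.31e-04), both low at 4 h, were higher after washout relative to 4 h, and Id2 was lower (-0.60 ± 0.20, 0.0334). The call of Id2 was lost without any 1 of 8 libraries (b or d of 4 mM at 4 h, a or c of 4 mM after washout, a or b of the 4 h vehicle, a or c of the washout vehicle; -0.60 to -0.44, adjusted p 0.0550 to 0.0985), with libraries a to c of 4 mM at 4 h alone (-0.43, 0.0987) or with only the groups compared (-0.59, 0.0610). At 1 mM the contrast called 1.09% of all genes and none of the 8, the nearest being Tgif1 (0.49 ± 0.13, adjusted p = 0.0617). Tgif1 passed there on leaving out library b of the 4 h vehicle (0.58, 0.0205), library c of the 6 mM washout group (0.50, 0.0227) or with DESeq2 (0.0302).

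The vehicle itself differed between the times, most of all for the ID genes. In the washout vehicle Id1 held 82.5, 79.5 and 75.5 CPM and Id3 131, 119 and 118 CPM, each far above every library of the 4 h vehicle. The log2 difference was 1.52 ± 0.15 for Id1 (adjusted p = 9.00e-08), 1.36 ± 0.15 for Id2 (6.04e-07) and 1.35 ± 0.10 for Id3 (4.11e-10). These placed the 3 genes above 99.2%, 99.0% and 99.0% of all genes by size of the difference, in a comparison that called 6.89% of all genes. Smaller rises were called for Smad6 (0.60 ± 0.10, adjusted p = 3.97e-04), Smad7 (0.55 ± 0.08, 3.01e-05), Skil (0.46 ± 0.11, 0.00890) and Smad3 (0.37 ± 0.09, 0.00834), so that 7 of the 8 genes rose. Tgif1 was at -0.18 ± 0.09 (0.290). Smad3 lost its call without library b of the washout vehicle (0.31, adjusted p = 0.0727). The longer time in culture and the handling at washout cannot be told apart here.

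For Id1 and Id3 the vehicle difference between the times exceeded in value the 4 h effect of 10 mM, whose log2 fold changes were 1.06 and 1.20. In the order of their group means over both times, all 5 washout groups stood above 10 mM at 4 h for both genes. The top place was held by 6 mM after washout for Id1 (87.7 ± 23.2 CPM, resting on library c at 114 CPM beside 79.8 and 69.5 CPM) and by 1 mM after washout for Id3 (143 ± 17.0 CPM), and in each gene the neighbours among the top groups overlapped. Separation of libraries was not counted over all genes. For the other 6 genes the 10 mM group at 4 h stood first, with no library overlapping the next group. That next group was a washout group for each. Of the 9 pairs of neighbours in this order, the libraries of 7 overlapped for Smad7 and Tgif1, 6 for Smad6 and Id1, 5 for Smad3, Skil and Id3, and 4 for Id2. The lowest group was the 4 h vehicle for the 3 ID genes, 1 mM at 4 h for Smad7 and Skil, 4 mM at 4 h for Smad3 and Tgif1, and 6 mM at 4 h for Smad6.

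Levels can be set between genes per length of exon. In the 4 h vehicle Id3 and Id1 led at 26.9 and 23.8 CPM per kb of annotated exon, followed by Smad3 at 15.7. Skil stood at 5.11, Tgif1 at 4.53, Smad6 at 3.71, Smad7 at 2.89 and Id2 at 2.30 CPM per kb. In the washout vehicle Id3 and Id1 stood at 68.6 and 68.2 CPM per kb and Smad3 at 20.3. Skil was then at 7.01, Id2 at 5.89, Smad6 at 5.61, Smad7 at 4.24 and Tgif1 at 4.00 CPM per kb, so Id2 passed Tgif1, Smad6 and Smad7 in value. All annotated exons entered these lengths, and isoforms were not resolved.

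Over the 10 group means of log2 CPM, Id1 and Id3 ran closest together of all 28 pairs among the 8 genes (Pearson r = 0.987), followed by Smad7 and Skil (0.943) and Smad6 and Id3 (0.900). The lowest of the 28 were Id1 with Skil (0.19), Id3 with Skil (0.25) and Id1 with Tgif1 (0.32). Smad3 and Smad6, the neighbours on chromosome 9, had r = 0.88. These coefficients describe 10 groups that share a cell line and a common scaling, and carry no test, and the mean of 6 mM after washout includes library c. Among tested genes with a mean of at least 5 CPM in 1 group or more, the closest to each was Sh3bp5 for Smad3 (0.98), Atoh8, a BMP target, for Smad6 (0.98), the immediate early gene Fos for Smad7 (0.97) and Foxj3 for Skil (0.99). For Tgif1 it was the survival gene Mcl1 (0.98), for both Id1 and Id3 the growth factor gene Fgf2 (0.97 and 0.95), and for Id2 the chaperone gene Hspa8 (0.97). The second closest were Dlx2, Kifc3, Zfp317, Ino80, Btg3, Lima1, Hk1 and Pcdhgc5, in the order Smad3, Smad6, Smad7, Skil, Tgif1, Id1, Id2 and Id3. Fos and Dlx2 reached 5 CPM only at 10 mM and 4 h (7.70 ± 3.88 and 6.66 ± 1.68 CPM). Pcdhgc5 reached 5 CPM only in the treated washout groups (5.71 to 6.40 CPM). Fos, Dlx2 and Pcdhgc5 entered the search through the groups where they were highest, so their likeness carries little weight.

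The rest of the pathway was followed in 5 gene lists, also chosen with earlier results of these data known. Among 19 tested of 22 other known targets of TGF-beta and BMP, 17 rose and none fell at 10 mM and 4 h, with a median log2 fold change of 0.77, where 50.1% of all genes were called. Bhlhe40, a transcription factor gene, rose from 34.2 to 178 CPM (2.38 ± 0.11, adjusted p = 3.42e-16). Ccn2, which encodes connective tissue growth factor, rose from 577 to 2481 CPM (2.10 ± 0.25, 2.45e-07). Klf10, a TGF-beta-induced repressor, rose from 35.2 to 135 CPM (1.94 ± 0.09, 1.11e-16). The genes that did not pass, named after their values were seen, were Ltbp2 (log2 fold change 0.38 ± 0.40) and Thbs1 (0.42 ± 0.21), and many genes of this list also respond to signals other than SMADs. At 1 mM 1 of the 19, Snai2, rose and 3 fell, among them Snai1 and Junb (Junb -0.93 ± 0.14, adjusted p = 4.01e-05). At 4 mM 8 rose and 4 fell, and at 6 mM 11 rose and 1 fell. Over all genes 9.84%, 38.6% and 39.8% were called at 1, 4 and 6 mM.

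Of 12 tested of 22 BMP ligands, receptors and antagonists, 6 rose and 3 fell at 10 mM and 4 h, where 26.0% of all genes were called higher and 24.1% lower. Their median log2 fold change was 0.22. Bmp4 and Gdf6, the BMP ligand genes that passed the filter, both fell. Bmp4 was at 37.8 CPM in the vehicle and 45.9 CPM at 1 mM (0.28 ± 0.10, adjusted p = 0.0938). It was at 31.1 CPM at 4 mM, 18.1 at 6 mM and 10.7 CPM at 10 mM (-1.82 ± 0.12, adjusted p = 2.99e-13). Gdf6 went from 57.5 to 22.7 CPM (-1.34 ± 0.11, 1.01e-11), and was lower already at 4 mM (30.0 CPM, -0.94 ± 0.09, 8.87e-10). Nbl1, which encodes a secreted BMP antagonist, rose from 11.9 to 36.6 CPM (1.62 ± 0.13, 2.82e-11), and the receptor gene Bmpr1b rose by 1.06 ± 0.15 (1.17e-06). After washout of 10 mM no gene of this list was called by edgeR, and Bmp4 was at 39.9 CPM beside a vehicle of 36.9 CPM (0.11 ± 0.10, adjusted p = 0.639).

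Of 18 tested of 23 TGF-beta and activin ligands, receptors and traps, 6 rose and 3 fell at 10 mM and 4 h (median log2 fold change 0.08), a share of called genes like the 50.1% over all genes. The activin subunit gene Inhba (0.82 ± 0.22, adjusted p = 0.00317) rose, as did the genes of the activin traps Fst (0.86 ± 0.10, 1.64e-08) and Fstl3 (0.68 ± 0.10, 2.50e-06). Tgfbr2, the type II TGF-beta receptor gene, fell (-0.73 ± 0.08, 9.27e-09). It was also lower at 4 mM (-0.75 ± 0.07, adjusted p = 5.96e-10) and 6 mM (-0.998 ± 0.08, 2.72e-11). The TGF-beta ligand genes Tgfb1 (0.27 ± 0.16, adjusted p = 0.149), Tgfb2 (0.06 ± 0.11, 0.678) and Tgfb3 (0.04 ± 0.10, 0.745), named after their values were seen, missed the threshold at 10 mM. Tgfb2 had passed as higher at 1 mM (0.36 ± 0.11, adjusted p = 0.0314) and 4 mM (0.28 ± 0.10, 0.0207).

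Of 20 SMAD transducers and regulators, all tested, 14 rose and 1 fell at 10 mM and 4 h (median log2 fold change 0.39), beside 26.0% of all genes called higher and 24.1% lower. Trim33, whose protein is a SMAD4-binding ubiquitin ligase, rose by 1.55 ± 0.10 (adjusted p = 9.33e-14), the ubiquitin ligase gene Smurf1 by 1.20 ± 0.09 (7.82e-12), and the BMP transducers Smad1 and Smad9 by 1.30 ± 0.07 (5.14e-15) and 1.24 ± 0.17 (3.03e-07). The gene that fell was Tgif2, the relative of Tgif1 (-0.92 ± 0.14, 1.81e-06, named after its value was seen). Of the 3 E-protein genes bound by ID proteins, Tcf12 rose (0.52 ± 0.08, 3.71e-06), while Tcf3 (0.01 ± 0.06, 0.900) and Tcf4 (-0.11 ± 0.09, 0.343) missed the threshold. After washout of 10 mM, 3 of the 72 genes tested in the 5 lists were called, near the 5.32% of all genes called there. They were lower: Tgif2 (-0.46 ± 0.12), Bhlhe40 (-0.61 ± 0.12) and Tcf3 (-0.21 ± 0.06).

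**Figure D3:**
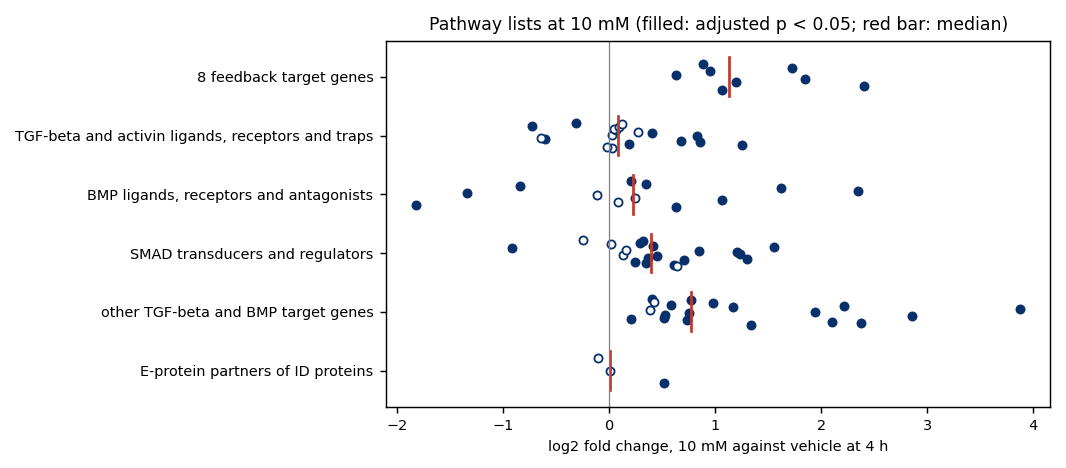
Log2 fold change at 10 mM against the vehicle at 4 h (horizontal axis) for the 8 genes and the tested genes of the 5 pathway lists. The row of feedback target genes includes the transducer gene Smad3. Each point is a gene, filled points passed adjusted p below 0.05, and the red bar is the median. The median of the 8 genes is 1.13, that of the other targets 0.77, and those of the ligand and receptor lists 0.08 and 0.22.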

How the data were processed

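Poly-A RNA of FE1 cells was sequenced with a stranded kit as paired 75 bp reads, per the labels' protocols. The authors deposited 1 table of expected counts (estimated counts per gene, 32 libraries), as the values show: 74.3% of values above 0 were whole within 1e-06. The aligner, quantifier and genome build are not given in the sources used here. Counts were rounded, filtered (filterByExpr, minimum count 10, total 15), scaled by TMM and tested by edgeR 4.0.16 in R 4.3.3 (limma 3.58.1) with robust quasi-likelihood over all 10 groups (22 residual degrees of freedom). Adjusted p (Benjamini-Hochberg) below 0.05 was a call. DESeq2 1.42.0, other scaling, filtering and sample choices, and leaving out each library were alternatives. Scripts were tested on simulated data. The 8 genes and the lists were chosen with earlier results of these data known. All 8 are described. From each list at most 4 called genes of 5 CPM or more with the largest change were named, and for each of the 8 the 2 tested genes of most similar profile. Within each time, the median correlation of same-letter deviations was 0.0132 over 60 pairs, and 4 exceeded 0.1. For different letters it was -0.0075 over 144 pairs, and 8 exceeded 0.1. Pairing of letters between the times was not checked. The values of 1 gene of the lists are not reported here.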

Additional observations from a re-analysis of the deposited data

Results flagged for a closer look

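For 16 of the 32 gene and dose pairs, the effect of hydrazine after washout differed from that at 4 h by edgeR's interaction test. Over all genes the same test called 1.09%, 17.3%, 24.4% and 36.4% at 1, 4, 6 and 10 mM. Each value here is the log2 fold change after washout minus that at 4 h. At 10 mM it was -0.72 for Smad3, -0.81 for Smad6, -1.67 for Smad7 and -2.01 for Skil. It was -0.76 for Tgif1, -1.02 for Id1, -1.92 for Id2 and -1.10 for Id3 at that dose. At 6 mM it was 0.49 for Smad6, -0.43 for Smad7, -0.77 for Skil, 0.47 for Tgif1 and -0.69 for Id2. At 4 mM it was 0.54 for Smad3, 0.69 for Tgif1 and -0.60 for Id2. The 5 libraries of 4 mM at 4 h were tested for an outlying library in each of the 8 genes, and 0 were found.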

How the results depend on the processing

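At 10 mM and 4 h, from 6 to 10 mM, and for the 10 mM effect between times, all 8 genes kept their call in every alternative run, and no result reversed. Counts of calls moved by over 1.5 times elsewhere, and the cause was not tested. Without the filter on low counts, genes called after washout were 82, 307 and 932 at 1, 4 and 6 mM (main 130, 461 and 1466), those for the 1 mM effect 82 (145), and 2 of the 8 genes were called from 1 to 4 mM (4). With a replicate block, or with libraries a to c of 4 mM alone, 2 of the 8 were called from 1 to 4 mM and 696 or 690 genes from 4 to 6 mM (1069). These 2 runs are not independent. Letters d and e occur only at 4 mM and 4 h, so the block in effect sets those libraries aside too. The replicate block left 122 of 128 gene results as they were, ended 5 calls (Tgif1 at 1 mM and 4 h, adjusted p = 0.0501; Smad3 from 4 to 6 mM, 0.147; Id3 and Smad7 from 1 to 4 mM, 0.0629 and 0.0941; Id2 for the 4 mM effect, 0.103) and added Id2 from 4 to 6 mM (0.0118). Fitting the same time point alone called 1999 genes and 5 of the 8 at 1 mM and 4 h (1305 and 3), 1749 from 4 to 6 mM, and 1, 142, 492 and 372 after washout of 1, 4, 6 and 10 mM (10 mM main 705), with 0 of the 8 at 6 mM (1). Fitting only the groups compared called 2088 genes at 1 mM and 4 h, then 0, 1429, 1 and 1399 after washout of 1, 4, 6 and 10 mM with 0 of the 8 at 6 mM, and 1819 genes and 2 of the 8 for the 6 mM effect (3240 and 5). DESeq2 called 226 genes after washout of 1 mM, and 245 genes and 1 of the 8 (main 0) for the 1 mM effect.

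Leaving out 1 library gave 669 (without vehicle c) to 1997 genes at 1 mM and 4 h, 53 (vehicle a at 4 h) to 497 for the 1 mM effect, 3 (1 mM washout c) to 506 after washout of 1 mM, 154 (vehicle washout c) to 975 at 4 mM, and 401 (10 mM washout a) to 1208 at 10 mM. It gave 651 (6 mM at 4 h, c) to 1720 from 4 to 6 mM and 516 (vehicle washout a) to 1504 for the vehicle between times (913). Each of these highest counts came without library c of the 6 mM washout group. After washout of 6 mM it gave 732 (vehicle washout c) to 2660 (6 mM washout b). Of the 8 genes, 1 to 4 were called at 1 mM and 4 h, 2 to 6 at 6 mM and 4 h, 0 to 6 from 1 to 4 mM, 1 to 4 from 4 to 6 mM, 0 to 1 after washout of 1 mM, 1 to 2 of 6 mM and 0 to 1 of 10 mM, and 0 to 1 for the 1 mM effect. Id2, at 60 counts in its lowest library, had the fewest counts of the 8.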
